A study of Mus musculus with 40 samples.

Results

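The nuclear genes of oxidative phosphorylation encode most subunits of the 5 enzyme complexes of the inner mitochondrial membrane. They were chosen here by symbol, as the protein-coding genes named Nduf, Sdh, Uqcr, Cox4 to Cox8 or Atp5, without the supercomplex factor Cox7a2l. Of 83 matching genes, 82 had 10 or more counts in at least 4 libraries and are the members described here, among 21253 genes that passed the same filter out of 43346 in the table. By symbol, 37 members belong to complex I, 4 to complex II, 8 to complex III, 16 to complex IV and 17 to complex V. The symbols are older than present knowledge in a few cases: Ndufa4 is now counted as a subunit of complex IV, and Atp5sl (now Dmac2) as a complex I assembly factor.

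Complex I (NADH dehydrogenase) and complex II (succinate dehydrogenase) pass electrons to ubiquinone, complex III passes them on to cytochrome c, and complex IV (cytochrome c oxidase) to oxygen. The protons pumped on the way drive ATP synthesis by complex V. Neurons depend on this pathway for most of their ATP, and the core subunits are made in nearly every cell, while some subunits of complex IV have isoforms used mainly in muscle, testis or hypoxic cells. Several catalytic subunits are encoded by mitochondrial DNA and are not among the members.

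The data were bulk RNA-seq counts from the cortex of 40 mice in 4 groups of 10, each of 5 females and 5 males. WT mice carried the unaltered Trem2 gene, and Hom mice were homozygous for Trem2 H157Y, a missense change knocked in by CRISPR/Cas9, with WT and Hom drawn from littermates of one founder line. Mice of the non-amyloid cohort were 6 months old, and those of the amyloid cohort were 8.5 months old and also carried 5xFAD, a neuron-driven human transgene array that leads to amyloid plaques. Because age and transgene changed together, their parts in any difference between the cohorts cannot be told apart.

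Library totals ran from 41600000 to 106000000 counts, with a median of 77200000. Of these counts, the members took 0.868% to 1.14% per library, with a median of 0.968%. The lowest total and the lowest member share were both in Amyloid_Hom 19, a female (libraries are named by group and number), whose values are given with and without it where it changes a result. The study sequenced 40 samples, and its methods then left out 1 amyloid Hom female for poor quality measures without naming it. All 40 libraries entered here, so that female is among them. Which library it is is not given in the sources used here. The microglial gene Trem2, the targeted gene, had 62.2 ± 24.4 CPM (counts scaled to a fixed library total with TMM factors; mean ± SD, n = 10) in amyloid WT, 33.9 ± 10.3 in amyloid Hom, 10.7 ± 2.13 in non-amyloid WT and 10.4 ± 1.59 in non-amyloid Hom mice. A codon change is not visible in gene counts, so these levels do not check the genotype labels. For brain tissue, 11 neuronal marker genes together stood at 9540 to 12000 CPM across the 40 libraries. Most of these markers are shared by neurons of many regions, so they do not check the cortex label. The summed level of 4 choroid plexus markers ran from 7.1 to 668 CPM, with a median of 16.9. In bulk tissue, fewer cells of a type and less RNA per cell cannot be told apart.

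The members differed in base composition, and their spread between mice followed it, so the first 90 coding bases of 6 members are shown with G and C in capitals (mouse reference transcripts, GENCODE vM21 on GRCm38). The first 2 are from members of low coding GC content, whose levels fell where those of GC-rich genes rose, and the other 4 from members of high GC content, among those that varied most between mice.
Uqcrb: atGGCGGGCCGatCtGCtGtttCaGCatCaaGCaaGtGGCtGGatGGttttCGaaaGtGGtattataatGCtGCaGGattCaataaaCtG
Ndufs1: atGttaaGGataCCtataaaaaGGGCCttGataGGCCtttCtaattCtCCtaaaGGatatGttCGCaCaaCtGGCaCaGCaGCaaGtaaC
Uqcr11: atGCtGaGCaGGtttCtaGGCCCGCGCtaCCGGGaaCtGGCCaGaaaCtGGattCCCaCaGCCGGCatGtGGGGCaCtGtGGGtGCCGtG
Ndufb7: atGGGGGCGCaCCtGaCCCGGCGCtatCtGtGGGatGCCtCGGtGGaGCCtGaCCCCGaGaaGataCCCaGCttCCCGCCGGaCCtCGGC
Ndufs7: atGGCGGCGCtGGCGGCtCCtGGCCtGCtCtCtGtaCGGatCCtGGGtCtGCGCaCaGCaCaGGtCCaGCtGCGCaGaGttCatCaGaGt
Atp5d: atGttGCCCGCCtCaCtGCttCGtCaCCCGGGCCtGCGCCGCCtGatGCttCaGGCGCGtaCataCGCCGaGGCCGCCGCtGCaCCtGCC

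Over the whole coding sequence, G and C made up 42.9% of Uqcrb and 45.1% of Ndufs1, against 60.7% of Uqcr11, 61.1% of Ndufb7, 61.6% of Ndufs7 and 61.9% of Atp5d. Across all 82 members the range was 41.5% (Cox7b2) to 65.2% (Cox8a).

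Levels between genes are compared per length, as CPM per kb of the exon length listed in the table, all exons of a gene included. Ndufa4 stood highest at 487 ± 54.9 CPM per kb (SD over 40 libraries), followed by Cox6b1, a small subunit at the outer face of complex IV, at 385 ± 38.9. The beta and alpha subunits of ATP synthase came next, Atp5b at 288 ± 14.6 and Atp5a1 at 280 ± 16.6, and differed from each other by less than their spread. Cox8a (253 ± 29.3) and Cox7a2 (229 ± 23.1) followed. In complex II the flavoprotein Sdha was highest at 128 CPM per kb and the membrane anchor Sdhc lowest at 25.5, and in complex III the hinge protein Uqcrh was highest at 167 and Uqcrq lowest at 13.5. Subunits of the same complex thus differed several-fold in CPM per kb of listed exon length. That length can differ from the length of a single reference transcript. It was 4237 against 1916 bases for Atp5b, 4522 against 623 for Ndufb7 and 492 against 610 for Ndufa4. The order of members given here holds for the listed length only.

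**Figure D1:**
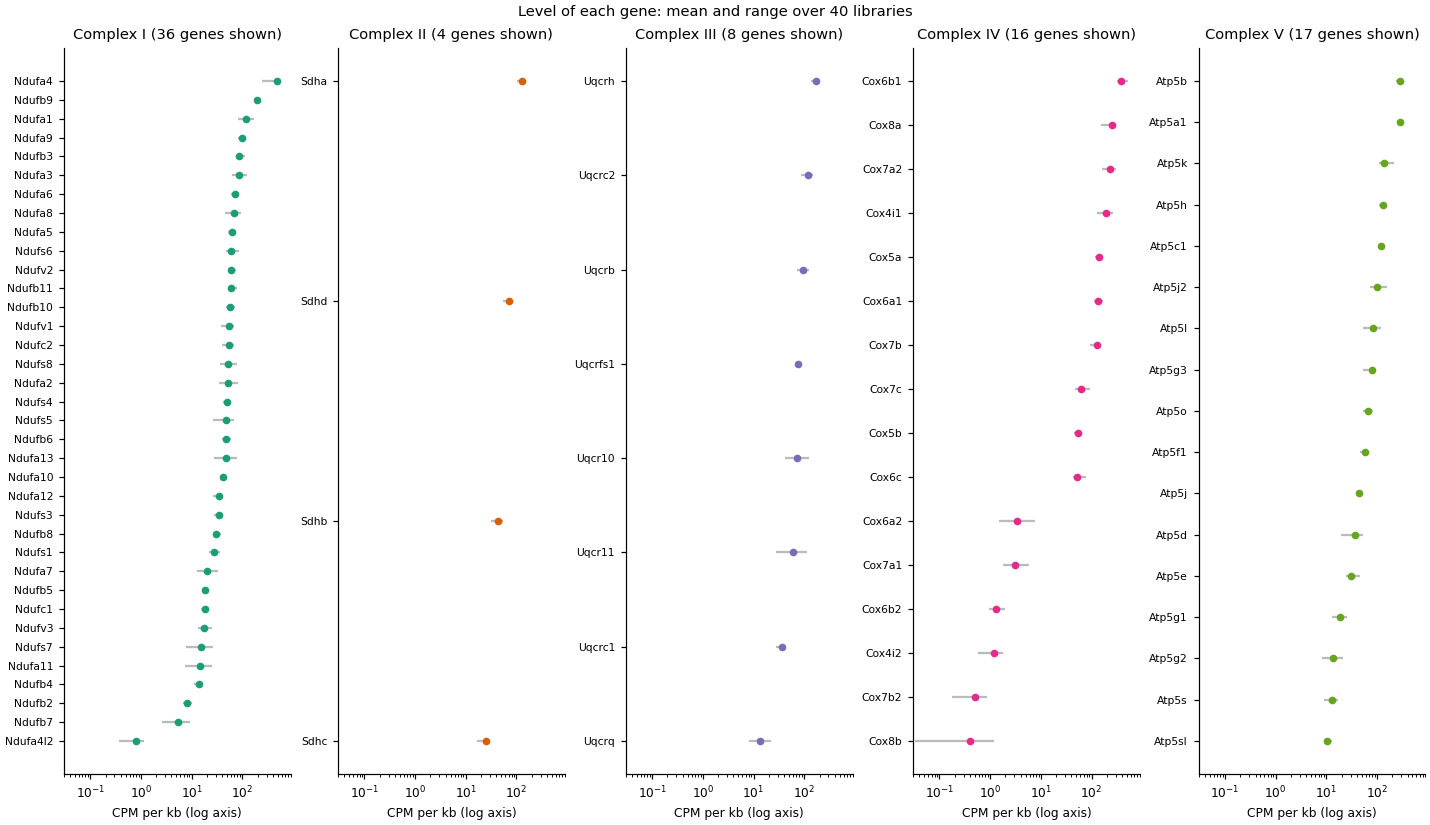
Level of each member in CPM per kb on a log axis, by complex; points are means and grey bars the range over 40 libraries, and 1 member of complex I is not shown. Most members lie between 10 and 500, and 7 tissue-restricted isoforms in complexes I and IV lie under 4.

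The tissue-restricted isoforms made up a small share of their pairs in every library. Cox6a2, the muscle form of Cox6a1, had 3.35 ± 1.11 CPM per kb, a median of 2.29% of the pair's sum (lowest 1.33%, highest 5.26%), which was the highest share of the 7 pairs. Cox7a1, the muscle form of Cox7a2, followed with 3.03 ± 0.798 and a median share of 1.2%. Cox4i2, the hypoxia-linked form of Cox4i1, had a median share of 0.602%, Cox7b2 0.408%, the testis form Cox6b2 0.334%, Ndufa4l2 0.172% and Cox8b 0.143%. Cox8b and Cox7b2 were the members nearest the count filter: Cox8b had 1 to 42 counts per library (median 9.5) and reached 10 counts in 20 libraries, and Cox7b2 had 4 to 38 and reached it in 39. Just outside, Cox8c had 2 counts in Amyloid_Hom 33 and 0 in the other 39 libraries.

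Cox8b, the muscle and brown fat form of Cox8a, was the member that varied most between mice of a group, with an SD of 0.848 on the log2 scale. In amyloid Hom mice its level ran from 0.0434 to 0.439 CPM with a median of 0.138, and in amyloid WT mice from 0.0127 to 0.286 with a median of 0.113. The groups overlapped, and the Hom mean (0.214 ± 0.151) was above the WT mean (0.107 ± 0.0837) through libraries 10, 19, 40 and 33, which held 0.439, 0.422, 0.374 and 0.28 CPM. The fitted difference was 0.96 on the log2 scale (95% interval 0 to 1.93, edgeR quasi-likelihood adjusted p = 0.518). The choroid plexus gene Ttr, which encodes transthyretin, stood at 553, 504, 608 and 280 CPM in those libraries. In amyloid WT mice, the 2 highest Cox8b values (0.286 in library 32 and 0.171 in library 36) were in the 2 libraries of highest Ttr (354 and 327 CPM). In the non-amyloid cohort, Ttr was 431, 221 and 170 CPM in NonAmyloid_Hom 2, NonAmyloid_Hom 4 and NonAmyloid_WT 15, where Cox8b was 0.15, 0.0118 and 0.106. Over all 40 libraries, log2 Ttr and Cox8b had Pearson r = 0.55 and Spearman rho = 0.26, as a description. Of the 4 choroid plexus markers, all 4 were higher in amyloid Hom than WT mice and 1 had an unadjusted p under 0.05; their summed level ran from 12.1 to 668 CPM in Hom and from 7.1 to 383 in WT mice. Their part in the Cox8b level was not tested.

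The first question was whether homozygous H157Y changed these genes. In the amyloid cohort, no member passed an adjusted p of 0.05 in the comparison of Hom with WT mice (0 of 82; edgeR, 10 and 10 mice), where 16 of 21253 genes did (0.0753%). None of the 10 microglial markers passed either (lowest edgeR adjusted p 0.0525), though all 10 were lower in Hom mice, with a median of -0.766. The study, without the female it left out, reported more genes in this comparison, with Trem2 and other microglial genes among them. What made this difference was not tested. At an unadjusted p under 0.05, 1 member stood lower and none higher, against 9.67% of all genes in either direction. That member was Atp5e, the epsilon subunit of the ATP synthase stalk. It ranged from 42.2 to 60.4 CPM (median 51.3) in Hom and from 44 to 70.9 (median 56.7) in WT mice. The groups overlapped, although 9 of 10 Hom mice lay below the WT median. The difference was -0.17 on the log2 scale (SE 0.081, edgeR adjusted p = 0.516).

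The data bounded most differences closely. For 55 of 82 members the 95% interval of the amyloid Hom against WT difference lay within 0.25 of zero on the log2 scale, and for 79 within 0.5. Over all 21253 genes, 7269 lay within 0.25 and 13747 within 0.5. Atp5b averaged 1210 ± 87.1 CPM in Hom and 1210 ± 47.6 in WT mice (95% interval -0.10 to 0.09), and the Rieske iron-sulfur protein Uqcrfs1 102 ± 3.96 and 101 ± 5.08 (-0.07 to 0.08). For the subunits Ndufv1, Ndufs1, Sdha, Sdhb, Uqcrc1, Cox5a and Atp5a1 the intervals also stayed within 0.25. They did not for Ndufs7 (-0.39 to 0.18). Cox4i1 of complex IV averaged 277 ± 32.8 CPM in Hom and 293 ± 43 in WT mice. Fitted differences were below zero for 58 members and above it for 24, with a median of -0.032 on the log2 scale, against 49.6% of all genes below zero and a median of 0.001. By coding GC content, the median was 0.017 in the 27 GC-poor members, -0.029 in the 28 between and -0.069 in the 27 GC-rich members. With the GC slope described further on as a covariate, 45 members were below zero and the median was -0.002. Without Amyloid_Hom 19, 48 were below zero and the median was -0.019.

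In the non-amyloid cohort, again no member passed (0 of 82, against 7 genes or 0.0329% of all), and 1 had an unadjusted p under 0.05, against 4.49% of all genes. This was Atp5f1, the peripheral-stalk b subunit, which ranged from 207 to 265 CPM (median 237) in Hom and from 226 to 275 (median 251) in WT mice. The 2 groups overlapped, with 9 of 10 Hom mice below the WT median. Its difference was -0.09 (SE 0.044, edgeR adjusted p = 0.962). In the other complexes the members of lowest p were Ndufb6 (-0.12, complex I), Sdhc (0.09, complex II), Uqcrb (-0.12, complex III) and Cox6a2 (-0.27, complex IV). All 4 had an edgeR adjusted p of 0.962. Of 82 intervals, 56 lay within 0.25 of zero, against 8836 of 21253 over all genes. Fitted differences were below zero for 65 members, with a median of -0.052, against 52.3% of all genes and a median of -0.007. Without NonAmyloid_WT 1, 47 were below zero and the median was -0.007; leaving out any other library gave a median between -0.073 and -0.031.

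**Figure D2:**
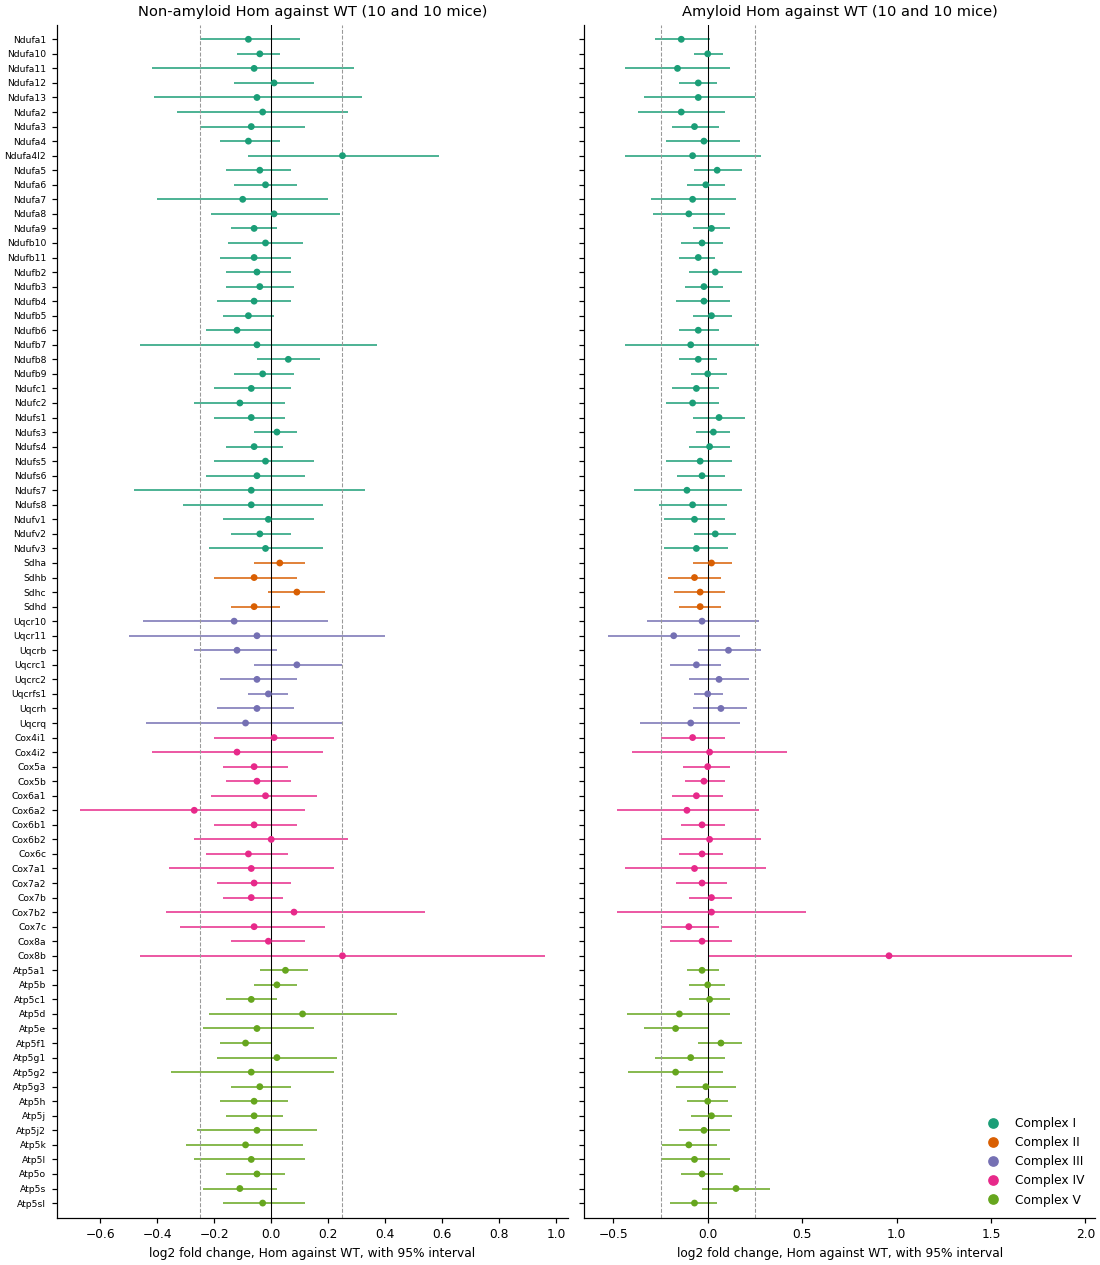
Fitted log2 fold change of Hom against WT mice for each member, with its 95% interval (lines), in the non-amyloid and amyloid cohorts, 1 member of complex I not shown; dashed lines mark 0.25 on either side of zero, and the panels have different scales. No member passed an adjusted p of 0.05, and the widest interval in the amyloid cohort is that of Cox8b (0 to 1.93).

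The genotype difference did not pass a test of change between cohorts for any member: the interaction gave 0 of 82, and 0 of all 21253 genes, at an adjusted p of 0.05 (0%), and 3 members and 10.3% of all genes at an unadjusted p under 0.05. The 3 were Atp5s (0.26, SE 0.108), Atp5f1 (0.16, SE 0.068) and the complex III subunit Uqcrb (0.24, SE 0.109), each with a fitted difference below zero without amyloid and above zero with it (edgeR adjusted p 0.425 to 0.454). DESeq2 also called no member here, and called 38 genes in all. Between the sexes, 0 of 82 members passed (89 genes or 0.419% of all did), and 2 had an unadjusted p under 0.05, against 8.74%. Both were lower in males: Cox6b1 with 187 ± 13.6 CPM in 20 males and 202 ± 22.1 in 20 females (-0.11), and Atp5j2, the f subunit of ATP synthase, with 115 ± 12.5 and 127 ± 20.3 (-0.14).

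5 members lie on chromosome 17 with Trem2 (48346401 to 48354147 in mm10), all in complex I. The nearest, Ndufa11, lies at 56717762 to 56724248, 8.36 Mb away, and Ndufb10 is the farthest at 23.6 Mb. None had an unadjusted p under 0.05 in either cohort, and their differences between Hom and WT mice ran from -0.16 (Ndufa11) to 0.04 (Ndufv2) with amyloid and from -0.10 (Ndufa7) to -0.02 (Ndufb10 and Ndufv3) without. With the GC slope as a covariate, Ndufa7 and Ndufa11 passed an adjusted p of 0.05 in the non-amyloid cohort (-0.23 and -0.22), and none of the 5 did in the amyloid cohort.

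The next question was how the amyloid cohort, older and bearing 5xFAD, differed from the non-amyloid cohort. In WT mice, 3 members passed an adjusted p of 0.05 and none also passed 0.25 on the log2 scale, against 2016 genes (9.49%) and 1689 genes (7.95%). Ndufa12 rose, and Atp5f1 and Ndufb6 fell. The direction was shared more widely than the calls: 76 of 82 differences were below zero, against 49.4% of all genes, with a median of -0.082 on the log2 scale, about -5.53%, against 0.002 over all genes. Members are measured in the same mice, so they are not independent replicates of this direction.

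Ndufa12, a subunit at the tip of the complex I arm, ranged from 42.6 to 55 CPM (median 50.6) in amyloid WT and from 34.5 to 49.6 (median 43.7) in non-amyloid WT mice. Here 9 of 10 amyloid mice lay above the non-amyloid median. The rise was 0.23 (SE 0.058, edgeR adjusted p = 0.00626). In Hom mice all 10 amyloid values (43.5 to 54.5 CPM) exceeded the non-amyloid median of 42.1, with a difference of 0.17 (SE 0.058, adjusted p = 0.0643 by edgeR).

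Atp5f1 ranged from 191 to 245 CPM (median 221) in amyloid WT mice and from 226 to 275 (median 251) in non-amyloid WT mice. All 10 amyloid mice lay below the non-amyloid median, though the groups overlapped. The fall was -0.19 (SE 0.048, edgeR adjusted p = 0.00676). In Hom mice, means were 231 ± 19.7 and 236 ± 15.3 CPM. Ndufb6, an accessory subunit of the complex I membrane arm, had 30.5 ± 2.29 CPM in amyloid and 34.2 ± 3.02 in non-amyloid WT mice (-0.17, edgeR adjusted p = 0.0306). Its adjusted p was 0.0721 without NonAmyloid_WT 1.

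**Figure D3:**
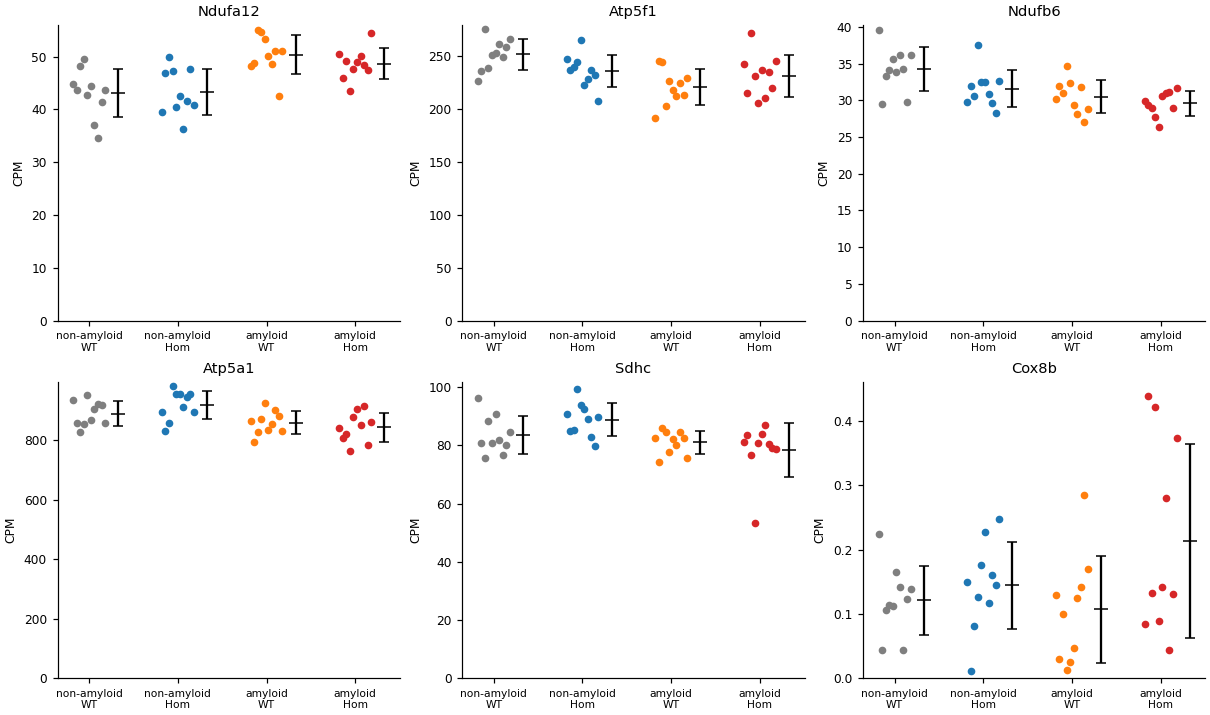
CPM in each mouse (points, 10 per group) with mean and SD (bars) for the 5 members that passed an adjusted p of 0.05 in a comparison of cohorts, and for Cox8b. Groups overlap in every panel, and the 1 low Sdhc value in amyloid Hom mice is library 19.

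Some counts may include reads of other genes, or lack reads that match several genes. Among stretches of 50 bases, 26.2% of those in Ndufa12 also occur in the annotated gene Gm15920, 34.1% of those in Ndufb6 occur on the opposite strand in Smim27, and Atp5f1 shares 23.2% on the same strand with other genes and 15.6% on the opposite strand, mostly with Wdr77. Whether strand was used in counting is not given in the sources used here, so these levels are uncertain to that extent. Altogether 45 members shared at least 1 such stretch, most of all Atp5g2 (87.4%), and 37 shared none. Of those 37, 34 stood below zero in the WT comparison, with a median of -0.079, and none passed an adjusted p of 0.05 (lowest 0.107, by edgeR).

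By complex, the WT differences were below zero for 35 of 37 members of complex I (median -0.079), 3 of 4 of complex II (-0.063), 8 of 8 of complex III (-0.10), 14 of 16 of complex IV (-0.086) and 16 of 17 of complex V (-0.087). At an unadjusted p under 0.05, 10 members were lower and 1 was higher, against 7.68% of all genes lower and 20.9% in either direction. The 12.2% of members lower is thus set against a background of 7.68%, and the 3 that passed the adjusted p, 3.66%, against 9.49%. Besides Atp5f1 and Ndufb6, the lower ones included the core complex I subunit Ndufs3 (76.2 ± 3.18 to 70.3 ± 3.53 CPM, -0.12) and Sdhb, the iron-sulfur subunit of complex II (102 ± 12 to 92 ± 11.4, -0.14). NonAmyloid_WT 1, the library with the highest member share, contributed to the count: without it 65 differences were below zero, the median was -0.046 and 2 members passed.

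In Hom mice, 2 members passed, both lower in the amyloid cohort and neither past 0.25, against 1601 genes (7.53%) and 1395 genes (6.56%). Atp5a1, the alpha subunit of ATP synthase, ranged from 764 to 916 CPM (median 847) with amyloid and from 831 to 984 (median 930) without. All 10 amyloid values lay below the non-amyloid median. The fall was -0.12 (SE 0.037, edgeR adjusted p = 0.0296). Sdhc ranged from 53.4 to 87.1 CPM (median 80.7) with amyloid and from 79.7 to 99.4 (median 89.5) without, with a fall of -0.18 (SE 0.056, edgeR adjusted p = 0.041). The 53.4 CPM belonged to Amyloid_Hom 19, and without that library neither gene passed (Atp5a1 -0.11, edgeR adjusted p = 0.0803; Sdhc -0.13, edgeR adjusted p = 0.0731).

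Across all members, 68 of 82 differences in Hom mice were below zero, against 44% of all genes, with a median of -0.069 against 0.027 over all genes. The median was -0.027 in the 27 GC-poor members, -0.084 in the 28 between and -0.149 in the 27 GC-rich members (coding sequence), and the mean GC slope of the libraries was -0.064 in amyloid and 0.0623 in non-amyloid Hom mice (log2 per 10 points of coding GC, over other genes). With that slope as a covariate, 47 of 82 were below zero (44.1% of all genes were) and the median was -0.013. The medians were then -0.028 in the GC-poor members, -0.017 in those between and 0.056 in the GC-rich members. The part of base composition was not tested beyond this fit. Without the covariate, at an unadjusted p under 0.05, 11 members were lower (7.9% of all genes were) and 2 were higher (22.6% of all genes passed in either direction). The WT and Hom comparisons use different mice, though one fit. Members lower at that threshold in both included Ndufb9, Ndufs3 and Sdhb, and the 4 in both were 40% of the 10 in WT and 36.4% of the 11 in Hom mice, against 26.8% and 26.1% of all genes lower at that threshold. Of 82 members, 66 were below zero in both without the covariate (80.5%), against 27.4% of all genes.

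**Figure D4:**
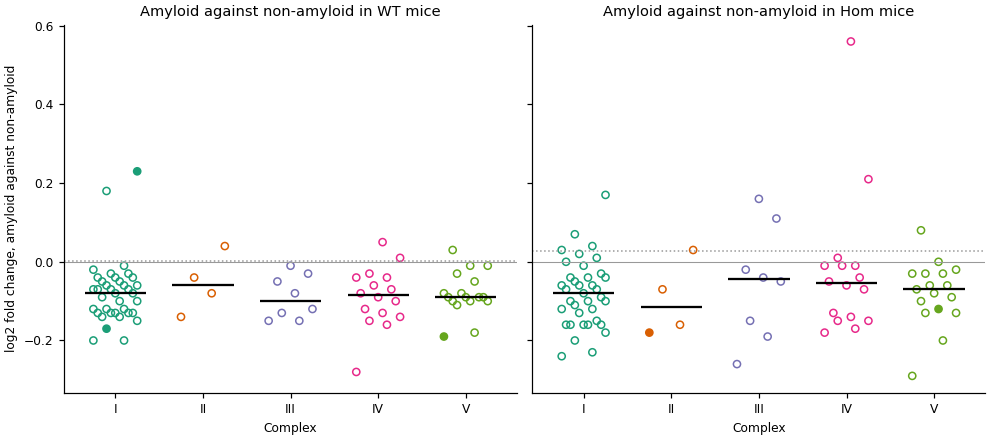
Fitted log2 fold change of the amyloid against the non-amyloid cohort for each member by complex, in WT and in Hom mice; filled points passed an adjusted p of 0.05, black bars are medians and dotted lines the median of all genes. In WT mice 76 of 82 points and in Hom mice 68 of 82 lie below zero.

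Marker genes of other cells moved with the cohorts. All 10 microglial markers rose in amyloid WT mice (median 1.80) and 9 of 10 in amyloid Hom mice (median 1.101), and their summed level was 650 to 1660 CPM in amyloid WT and 320 to 410 in non-amyloid WT mice. Of 11 neuronal markers, 2 passed in WT mice, both lower (median over the list -0.055), and none passed in Hom mice (-0.064). The members' medians of -0.082 and -0.069 stand beside these values, and the part of cell composition in them was not tested.

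Other mitochondrial lists gave few calls. In WT mice, of 17 genes of the citric acid cycle 1 passed, lower in the amyloid cohort, and 14 were below zero (median -0.095). Among 45 assembly factors 1 passed, lower (median -0.031), and among 77 mitochondrial ribosome genes 1 rose and 2 fell (median -0.039). None of 19 import and carrier genes passed (median -0.064), and of 76 cytosolic ribosome genes 2 rose and none fell (median 0.065). No gene of these lists passed in either comparison of Hom with WT mice. With the GC slope described next as a covariate, 1 mitochondrial ribosome gene was higher in both and 2 cytosolic ribosome genes were lower in the non-amyloid one.

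Single mice also differed along base composition. For each library a GC slope was taken over 13583 other genes, as the change in log2 level, relative to the 40-library mean, per 10 points of coding GC content. The slopes ran from -0.366 (NonAmyloid_WT) to 0.241 (Amyloid_WT), and the group means were -0.00774 and 0.0623 in non-amyloid WT and Hom, 0.0094 and -0.064 in amyloid WT and Hom mice, with SDs within groups of 0.126 to 0.185. The mean level of the 27 members of highest coding GC (55.7% to 65.2%) followed the slope, with Pearson r = 0.91 and Spearman rho = 0.91 over 40 libraries, 0.89 without the 2 libraries farthest from the median slope, and 0.87 to 0.97 within the groups. For the 27 members of lowest GC (41.5% to 51.3%) r was -0.32. These are descriptions, since both measures come from the same libraries.

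The swing was large for some genes. Ndufs7, a core complex I subunit, ranged from 13.8 to 44.5 CPM among 10 non-amyloid WT mice and from 14.7 to 38.8 among non-amyloid Hom mice, while its group means lay between 23 and 28.5 CPM. Uqcr11, a small subunit of complex III, ranged from 18.5 to 71.3 CPM within non-amyloid WT mice. Uqcrb, in the same complex but GC-poor, ranged from 73.6 to 109 and went the other way, with r = -0.78 against the slope. Ndufs7 had r = 0.95 and Uqcr11 0.94, with group means taken out. The median SD between mice of a group was 0.319 on the log2 scale in the GC-rich members and 0.128 in the GC-poor ones. Total count and the members' mean level had r = 0.07 and rho = 0.08 over the 40 libraries.

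**Figure D5:**
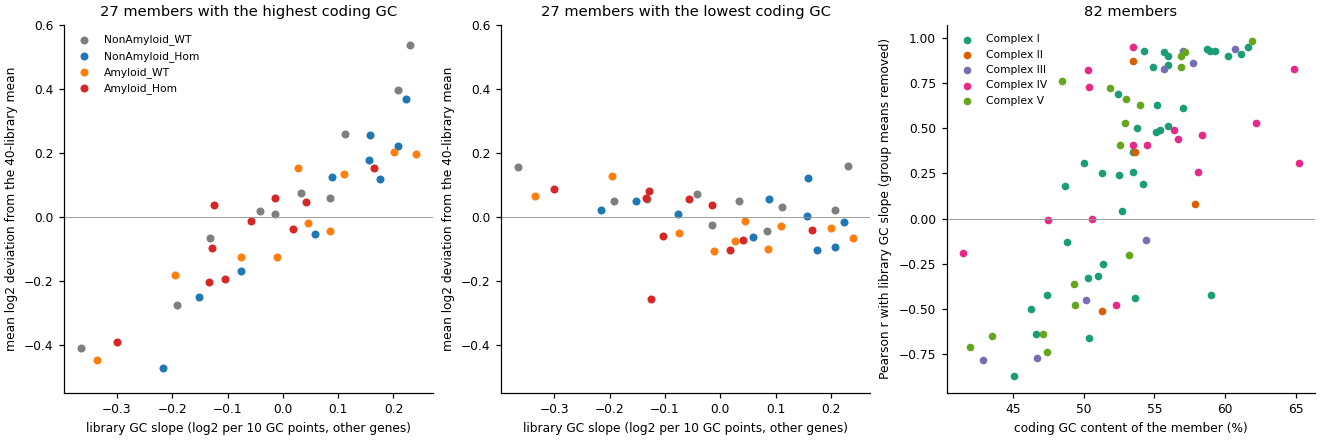
Left and middle, mean log2 deviation of the 27 members of highest and of lowest coding GC in each of 40 libraries (points, coloured by group) against the library's GC slope over other genes. Right, each member's correlation with that slope against its coding GC content; GC-rich members rise to 0.98 and GC-poor members fall to -0.87.

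The GC slope was entered as a covariate, an alternative chosen after seeing the data. In WT mice, 17 members then passed in the comparison of cohorts, 16 lower and Ndufa12 higher, against 3407 genes (16%), and 77 of 82 were below zero with the median at -0.081. Those lower included Ndufs1, Ndufs3, Ndufs7, Ndufs8 and Ndufv1 of the complex I core. In Hom mice 1 member passed, Ndufs3 (-0.13, edgeR adjusted p = 0.0157), against 1616 genes (7.6%), and 47 were below zero, with the median at -0.013.

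Between Hom and WT mice, the covariate left the amyloid cohort with no member passing (0.0423% of all genes did). There, 72 of 82 intervals lay within 0.25 of zero, against 9972 of 21253 over all genes. In the non-amyloid cohort 4 members passed, Ndufs7 (-0.25), Ndufa7 (-0.23), Ndufb7 (-0.22) and Ndufa11 (-0.22), all of complex I and all lower in Hom mice, against 24 genes (0.113%); the edgeR adjusted p of Ndufs7 was 0.00517. All 4 are among the 27 GC-rich members, their levels had r = 0.91 to 0.95 with the slope, and Ndufa7 and Ndufa11 lie on chromosome 17 with Trem2. With the covariate, 70 of 82 differences in the non-amyloid cohort were below zero, with a median of -0.068. Of all genes, 51.8% were, with a median of -0.004. At an unadjusted p under 0.05, 24 members were lower and 0 higher, against 1017 and 929 of 21253 genes. When NonAmyloid_WT 1 was also left out, 1 member passed the adjusted p. With the covariate no member passed in the interaction (0% of all genes) or between the sexes (1.2%). In that interaction 69 of 82 members were above zero (median 0.06), against 11318 of 21253 genes (median 0.01). At an unadjusted p under 0.05, 14 members were higher and 0 lower, against 901 and 900 of all genes.

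Promoters were compared with RefSeq's (GRCm38.p6, 250 bases before to 50 after the most 5' start listed), which matched 68 of 82 members. The letters GCGCNTGCGC, read on both strands and typical of sites of nuclear respiratory factor 1 (NRF1, a regulator of mitochondrial genes), occurred in 16 of these 68 (23.5%) and in 4.77% of 26957 other promoters. The ETS letters CCGGAAG occurred in 22.1% and 9.1%, AAGATGG, found in YY1 sites, in 16.2% and 6.44%, and the Sp1 letters GGGCGG in 39.7% and 35.9%. Median GC content was 57.3% and 52.7%, so the 2 sets of promoters also differed in composition. The 120 bases before the start of 3 members that hold the NRF1 letters are shown because they carry this feature, with the NRF1, ETS and YY1 letters on either strand in capitals: Ndufa5 (chr6:24527691-24527810, minus strand), Cox6a1 (chr5:115348959-115349078, minus strand) and Sdha (chr13:74350241-74350360, minus strand).
Ndufa5: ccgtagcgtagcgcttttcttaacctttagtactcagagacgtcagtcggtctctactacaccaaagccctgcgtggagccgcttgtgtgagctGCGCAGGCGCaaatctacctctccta
Cox6a1: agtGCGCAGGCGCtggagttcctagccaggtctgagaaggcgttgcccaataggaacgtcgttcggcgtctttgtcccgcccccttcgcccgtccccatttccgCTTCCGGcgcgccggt
Sdha: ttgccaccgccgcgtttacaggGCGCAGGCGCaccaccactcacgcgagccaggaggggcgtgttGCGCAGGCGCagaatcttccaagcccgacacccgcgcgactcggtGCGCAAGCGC

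A match is a description of letters, not of binding. Of the 3, Sdha was among the few members whose fitted difference between cohorts was above zero in both WT (0.04) and Hom mice (0.03).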

How the data were processed

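Cortical poly-A RNA-seq of 40 mice was analysed as the deposited table of whole counts per gene, made by the authors on mm10. The submitters' processing notes name STAR 2.5.2b and featureCounts 1.5.1, while the study's methods name a TopHat-based pipeline; which made the table is not given in the sources used here. The deposited exon length per gene (other unit) was used for CPM per kb. Genes with 10 or more counts in at least 4 libraries were kept. Differences were tested with edgeR 4.0.16 (TMM, quasi-likelihood, R 4.3.3) over all 21253 genes with Benjamini-Hochberg adjustment, with 20 libraries for Hom against WT and 40 for the other comparisons. A call needed an adjusted p under 0.05, and where stated a log2 fold change over 0.25. The pipeline was tested on simulated data. DESeq2 1.42.0, other scalings, no filter, left-out libraries and covariates were alternatives. By rule, named genes were the lowest p per direction and complex, a fixed list of subunits, isoforms, chromosome 17 members and extremes of level. Other members are named for base composition, spread between mice, shared sequence, promoter letters or a p under a stated threshold. The members and lists were chosen with earlier results of these data known. Transcripts came from GENCODE vM21. Values of 1 member of complex I are not reported singly here; it is included in all counts and medians. All p-values rest on the spread between mice, to which counting error adds most for the rarest isoforms.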

Additional observations from a re-analysis of the deposited data

Results flagged for a closer look

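Within groups of 10, a level was singled out when its gap to the nearest other mouse, as a share of the group's range, exceeded the 95% critical value of Dixon's test, which chance does in about 1 in 20 groups; 29 of 328 member and group combinations met this, 11 of them low values in Amyloid_Hom 19 and 7 high values in NonAmyloid_WT 1. Among the 38 members named by the rule above there were 16. In Amyloid_Hom 19, low values were Ndufa4 at 121 CPM (next 215), Cox8a at 82.1 (next 123), Cox7a2 at 121 (next 159), Sdha at 404 (next 478), Sdhc at 53.4 (next 76.8) and Ndufa1 at 34.8 (next 43.4). In NonAmyloid_WT 1, Cox7a2 at 228 CPM (next 190) and Ndufa1 at 72.1 (next 57.6) were high. The isoforms Cox6a2 at 5.04 CPM (next 2.45) and Cox4i2 at 1.3 (next 0.95) were high in Amyloid_WT 32, and Cox7a1 was high in Amyloid_WT 12 at 2.15 (next 1.22) and in Amyloid_Hom 10 at 1.83 (next 1.25). Ndufv2 at 147 CPM and Uqcrb at 109 were high in NonAmyloid_WT 15, and Ndufb6 at 37.5 and Uqcrfs1 at 118 in NonAmyloid_Hom 11.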

How the results depend on the processing

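The median over the members kept its sign in every comparison under every alternative run, except amyloid Hom against WT with the GC slope as a covariate and Amyloid_Hom replicate 19 left out (0.003, against -0.032). In both comparisons of Hom with WT mice no other scaling, filter, tool or set of libraries without the GC slope gave a member with an adjusted p under 0.05, including the 20 fits per cohort that leave out 1 library each (median -0.049 to -0.019 with amyloid, -0.073 to -0.007 without). With no fold threshold, 3 members passed in the comparison of cohorts in WT mice and 2 in Hom mice. At an adjusted p under 0.05, WT mice gave 7 members with DESeq2, 7 with RLE scaling, 2 without NonAmyloid_WT replicate 1 and 5 without Amyloid_Hom replicate 19. That last library enters the WT comparison only through the shared spread and the scaling factors. Hom mice gave 4 with DESeq2, 1 with upper-quartile scaling, 1 in a fit of the 20 libraries alone and 0 without Amyloid_Hom replicate 19. The remaining alternatives were chosen after seeing the data and use the library GC slope as a covariate. In WT mice they gave 17 members, 17 with sex too, 23 without Amyloid_Hom replicate 19 and 13 leaving out NonAmyloid_WT 1; in Hom mice each gave 1. Non-amyloid Hom against WT gave 4 members, 7 with sex too (1 past 0.25 on the log2 scale) and 1 leaving out NonAmyloid_WT 1 (also past 0.25); between the sexes, 1 passed when Amyloid_Hom replicate 19 was left out. The cause of these shifts was not tested. Over all genes, 9.49% passed in the main WT fit and 7.53% in the main Hom fit, and 16% and 7.6% with the covariate alone. For non-amyloid Hom against WT with the covariate alone the share was 0.113%. For most other alternatives, here and above, the share over all genes is not given, so those counts are not set against a background. No paired analysis was possible because the labels do not give the litter of each mouse, so litter did not enter the fits. Depth limits the rarest isoforms most: Cox8b had a median of 9.5 counts.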
